A study of Mus musculus with 10 samples.

Results

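The genes followed here make, carry and break down prostaglandins in the mouse oviduct. They were chosen by symbol: Pla2g4a, Ptgs1, Ptgs2, Ptges, Ptges2, Ptges3, Ptgis, Ptgds, Slco2a1 and Hpgd. Of these 10 genes, 9 had a probe set annotated to their symbol alone, among 19938 named genes in all; Ptgs1 was not analysed here. Whole oviducts of PRKO mice, homozygous for a lacZ insertion that disrupts both isoforms of the progesterone receptor gene Pgr, were compared with those of heterozygous PR+/- mice, which carry 1 such allele and are fertile. All animals were pre-pubertal, 21 to 23 days old at the first injection, were primed with 5 IU of equine chorionic gonadotropin (eCG) and, 44 to 47 h later, given 5 IU of hCG, human chorionic gonadotropin, to bring on ovulation. Oviducts were collected 8 h after the hCG injection, and each of the 5 samples per genotype pooled 3 animals. The heterozygous controls thus lack 1 functional copy of Pgr themselves, and no wild-type or unstimulated group was compared here. Signals were log2 values from Affymetrix whole-transcript arrays, on which probe sets differ in their own brightness, so levels are compared between genotypes and never between genes.

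Prostaglandins are short-lived lipid signals made from arachidonic acid. A phospholipase frees the acid from membranes, a cyclooxygenase converts it to the unstable intermediate prostaglandin H2, and terminal synthases turn that into prostaglandin E2, D2, F2 alpha or prostacyclin. A carrier then takes prostaglandins up into cells, where a dehydrogenase inactivates them. In the reproductive tract they act on smooth muscle, vessels and epithelium, and in the ovary the inducible cyclooxygenase rises after the ovulatory surge of luteinizing hormone.

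The genotype labels were checked first. Pgr signal was 6.36 ± 0.037 in PRKO pools and 7.42 ± 0.11 in PR+/- pools (SD, n = 5 each), with no overlap (exact two-sided permutation test, p = 0.00794, the lowest value possible with 252 arrangements). The oviduct epithelial genes Pax8, Epcam and Foxj1 read at least 6.87 on every array, but no other tissue was on these arrays to set that against, so these levels do not check the tissue. Ovgp1 shares its probe set with another gene and was not read. In whole tissue, fewer cells of a type and less RNA per cell cannot be told apart. PRKO replicate 3 and PR+/- replicate 4 stood apart in ovarian follicle genes. The spread of log2 values over an array (interquartile range, IQR) was 3.13 to 3.42 in PRKO and 3.37 to 3.48 in PR+/-. It thus ran lower in PRKO, so as a covariate it is partly confounded with genotype, and a call lost with it does not tell the 2 apart. For the prostaglandin genes, the related pathway lists and the genes most like Ptgs2, calls that changed without those 2 arrays are given beside the genes. The same holds for calls that changed with the IQR as a covariate. Calls of cell type markers were not checked under these alternatives.

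Among the 9 measured genes, Ptgs2, the inducible cyclooxygenase, was lower in PRKO oviducts, and the other 8 did not pass. That is 1 of 9 genes called at a Benjamini-Hochberg adjusted p under 0.05 in limma, where 4.96% of all tested genes were called (3.87% lower and 1.09% higher in PRKO), so at this number of genes the share is not set apart from the background. Over all genes, 771 were lower and 217 higher in PRKO, or 672 and 349 with each array centred on its median. The mean was lower in PRKO for 8 of the 9 genes, against 43.9% of all genes, and this number was also 8 after quantile, median and cyclic loess scaling. The 8 include Ptges3 by its brightest probe set. Its log2 change was 0.26 on its dimmest probe set and 0.029 with the mean of its probe sets, so its place in this count is uncertain. The median log2 change of the 9 genes was -0.16, beside 0.03 for all genes. These backgrounds were not matched for brightness, and all of the 9 but Ptgds read above the median signal of all genes. With the dimmest 50% of genes left out, 993 genes were called lower and 183 higher in PRKO. An unadjusted p under 0.05 was reached by 3 of the 9, Ptgs2, Hpgd and Slco2a1, and by 21.1% of all genes.

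**Figure D1:**
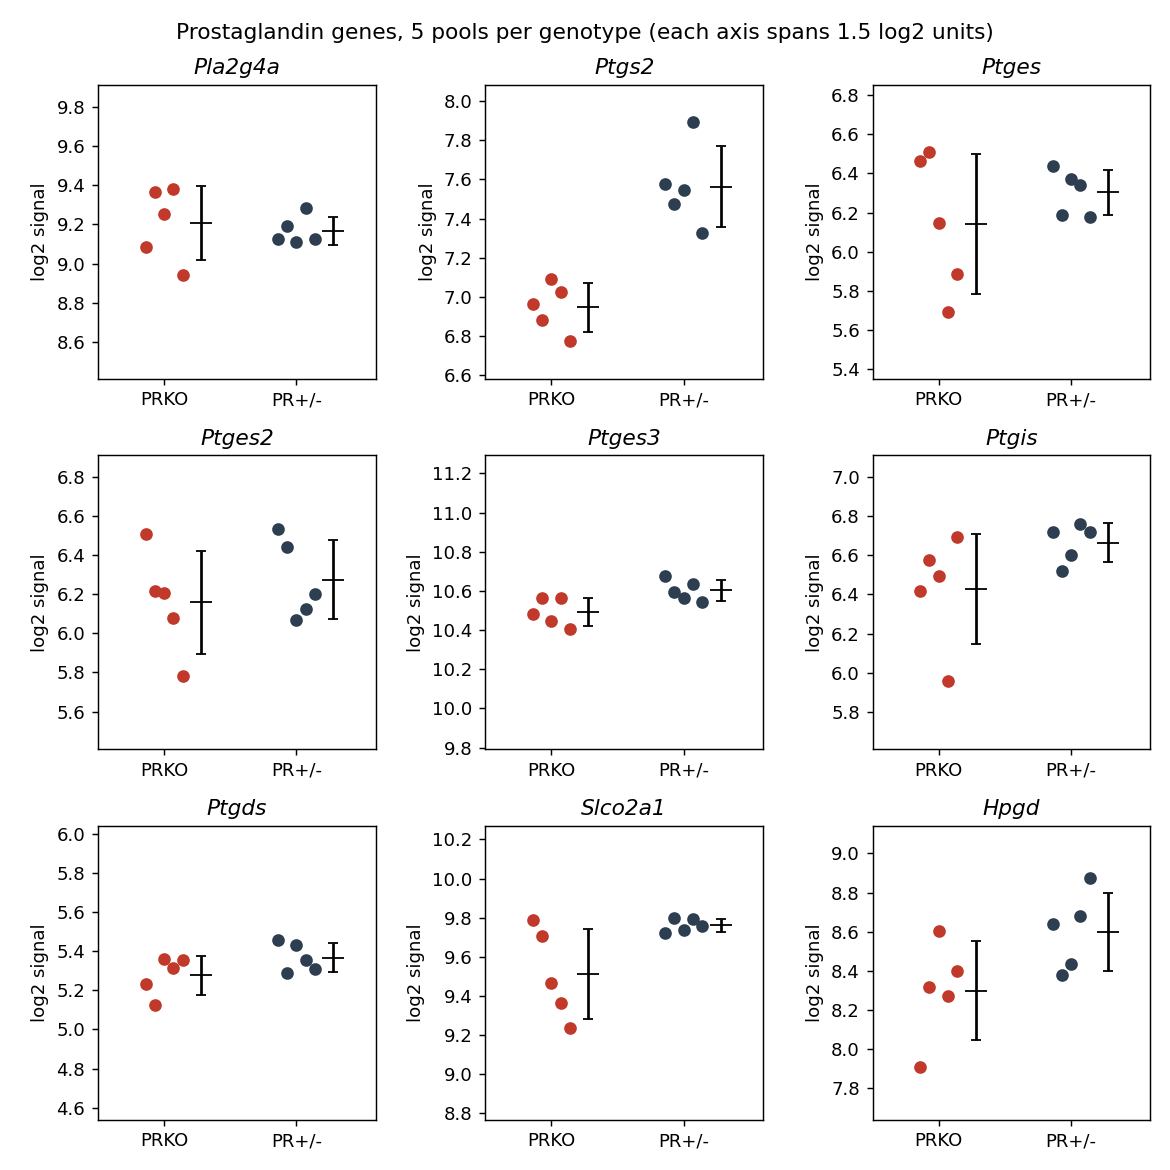
Log2 signal of the 9 measured prostaglandin genes in the 5 PRKO pools (red, left) and the 5 PR+/- pools (dark, right), replicates 1 to 5 from left to right, with mean and SD beside the points; each vertical axis spans the same number of log2 units. The PRKO values of Ptgs2 lie between 6.77 and 7.09, all below the lowest PR+/- value of 7.33, while the genotypes overlap in the other 8 genes.

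Ptgs2, which carries out the committed oxygenation of arachidonic acid, read 6.96, 6.88, 7.09, 7.03 and 6.77 in PRKO replicates 1 to 5, against 7.58, 7.48, 7.54, 7.89 and 7.33 in PR+/- replicates 1 to 5. Every PRKO pool was below every PR+/- pool, a separation also seen in 5.06% of all genes in this direction. The means were 6.95 ± 0.12 in PRKO and 7.56 ± 0.21 in PR+/- (SD, n = 5 each), a log2 change of -0.62 ± 0.10 (SE; 95% interval -0.83 to -0.40), or 1.53-fold lower (limma adjusted p = 0.00230). Leaving out single arrays gave log2 changes of -0.68 to -0.53, all called. With the IQR as a covariate the change was -0.56 ± 0.138 (SE) and the call was lost (limma adjusted p = 0.0740; range over the alternatives 4.51e-04 to 0.0740).

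The Ptgs2 promoter window is printed because this is the member whose genotypes separated. It is the RefSeq sequence (GRCm38.p6) from 250 bases before to 50 bases after the annotated start, at chr1:150099781-150100080 on the + strand, with motif matches in capitals.
Ptgs2: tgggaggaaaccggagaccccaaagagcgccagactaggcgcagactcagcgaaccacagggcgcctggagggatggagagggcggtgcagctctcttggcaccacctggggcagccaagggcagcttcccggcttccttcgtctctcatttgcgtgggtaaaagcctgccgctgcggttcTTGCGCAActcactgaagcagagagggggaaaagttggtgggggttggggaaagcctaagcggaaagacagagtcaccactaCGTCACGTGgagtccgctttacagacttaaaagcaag
The first capitals are TTGCGCAA, a palindromic site of the C/EBP family of factors, beginning 69 bases before the start and found on either strand in 0.18% of 32851 RefSeq promoter windows. The second are CGTCA, the core of a cyclic AMP response element, beginning at base 14 after the start (20.8% of windows), which overlaps CACGTG, an E-box that begins at base 17 (7.15% of windows). Neither TATAAA (13.6% of windows) nor ACANNNTGT, a core of the palindrome bound by steroid receptors such as PGR (6.85% of windows), matched in these letters on either strand. In all, 9 of the 10 genes had such a window, and among them TTGCGCAA occurred in that of Ptgs2 alone. A match is a description of sequence and no evidence of binding.

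The change of Ptgs2 was set against that of each other measured member, within arrays, so that the brightness of the probe sets cancels. The 8 differences were all negative, between -0.65 against Pla2g4a and -0.32 against Hpgd. For 4 of the 8, those against Pla2g4a, Ptgds, Ptges3 and Ptges2 (-0.65, -0.53, -0.51 and -0.50), the genotypes did not overlap and the two-sided exact permutation p, adjusted over the 8 comparisons, was 0.0159. Against Slco2a1 and Ptges the differences were -0.37 and -0.45 (adjusted exact p = 0.0508 and 0.0529), and against Ptgis and Hpgd they were -0.38 and -0.32 (adjusted exact p = 0.0998 and 0.119). By this test Ptgs2 differed in its change from 4 members, and its difference from the other 4 did not pass. Ptgs2 had the largest fall of the measured members on these same arrays, so the negative sign of all 8 differences follows from that. The p values take no account of this, nor of members having been chosen with earlier results known. Without PRKO replicate 4, 7 of the 8 passed. Without the 2 arrays of high ovarian signal none passed, in a design of 4 against 4 arrays with fewer arrangements. The same 4 had an adjusted exact p of 0.0571, the lowest that 4 of 8 comparisons can reach there, so this alternative could not keep their pass.

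Cell type markers were read on the same arrays. The counts of called markers stand beside 3.87% of all genes called lower and 1.09% called higher in PRKO. Ovarian granulosa and cumulus cells also express Ptgs2 after hCG. None of the 12 measured ovarian follicle genes was called in limma, and their mean log2 signal was 4.29 to 5.06 in PRKO and 4.23 to 4.98 in PR+/-. The highest of these were PRKO replicate 3 (5.06) and PR+/- replicate 4 (4.98), and the same arrays held the highest Ptgs2 value of their genotype. Of the 12 genes, 9 were at their PRKO maximum in PRKO replicate 3 and 7 at their PR+/- maximum in PR+/- replicate 4. The cumulus genes Has2 and Ereg were so on both arrays, though Has2 was dim (3.62 to 3.89 in PRKO and 3.32 to 3.68 in PR+/-). Others were so on 1 of these arrays: Ptx3 and Btc had their PR+/- maximum in replicate 3, and Tnfaip6 its PRKO maximum in replicate 2. The 7 oocyte genes were all at the maximum of their genotype in PRKO replicate 3 and PR+/- replicate 4. Their mean signal was 4.34 in PRKO replicate 3 and 3.49 to 3.68 in the other PRKO pools. It was 4.12 in PR+/- replicate 4 and 3.41 to 3.59 in the other PR+/- pools. Without those 2 arrays the log2 change of Ptgs2 was -0.57 ± 0.094 (SE, limma adjusted p = 0.00484). Smooth muscle genes moved with the genotype: 8 of 8 were called lower in PRKO, and their mean signal was 8.44 to 8.70 in PRKO against 9.35 to 9.53 in PR+/-. The array with the highest Ptgs2 value of its genotype read 8.655 in smooth muscle signal in PRKO, near the upper end, and 9.35 in PR+/-, the lower end. Of 7 endothelial genes, 2 fell (mean signal 5.91 to 6.21 in PRKO against 6.17 to 6.26 in PR+/-). Of 7 macrophage genes none was called (6.59 to 6.84 in PRKO and 6.55 to 6.71 in PR+/-). Of 6 mesothelial genes, which mark the outer lining, 2 fell (8.10 to 8.48 in PRKO against 8.43 to 8.60 in PR+/-). Of 6 fibroblast genes 1 fell, Pdgfra (mean signal of the 6 genes 9.16 to 9.46 in PRKO and 9.24 to 9.54 in PR+/-). Of 5 secretory epithelial genes 1 rose, Wnt7a (mean signal of the 5 genes 7.62 to 7.95 in PRKO and 7.52 to 7.68 in PR+/-). Wnt7a itself was dim, at 4.38 to 4.57 in PRKO and 3.69 to 4.14 in PR+/-. Of 6 mast cell genes, Hdc fell and Kit rose (mean signal of the 6 genes 5.38 to 5.46 in PRKO and 5.39 to 5.47 in PR+/-). The others read low, and their probe sets may hold little signal. Ms4a2 read 2.2 to 2.7 in PRKO and 2.3 to 2.6 in PR+/-, and Cpa3 3.0 to 3.1 and 3.1 to 3.2. Mcpt4 read 3.1 to 3.8 in PRKO and 3.0 to 3.3 in PR+/-, and Tpsb2 4.4 to 4.7 and 4.4 to 4.6. Whether Hdc and Kit were read from mast cells was not tested. The part of all these cell types in the lower Ptgs2 signal was not tested.

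**Figure D2:**
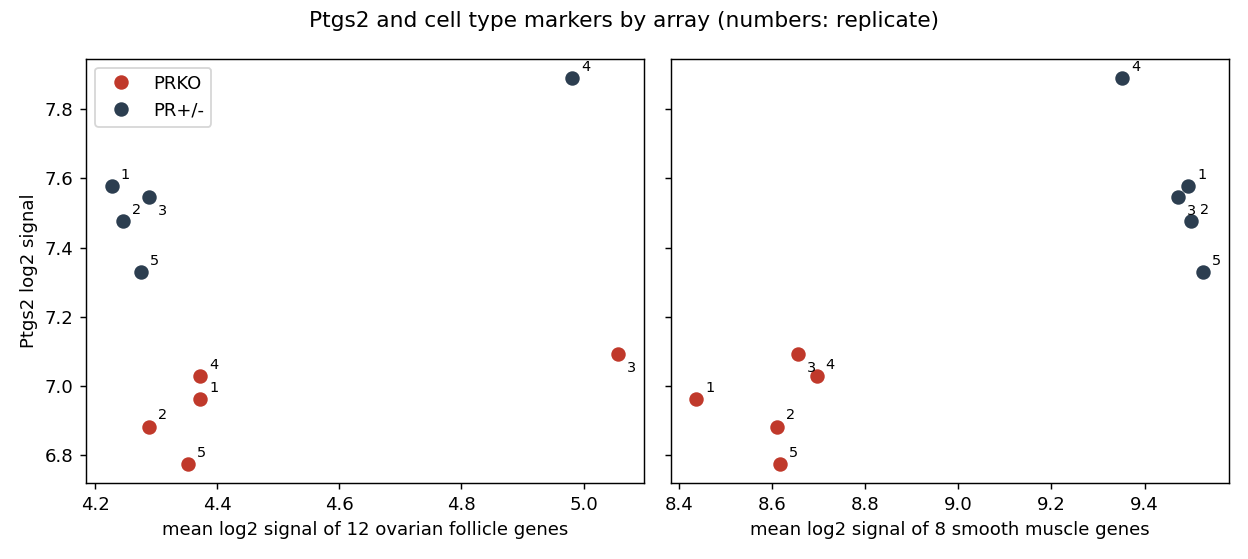
Ptgs2 log2 signal of each array (vertical) against the mean log2 signal of 12 ovarian follicle genes (left) and of 8 smooth muscle genes (right); red points are PRKO, dark points PR+/-, and numbers are replicates. PRKO replicate 3 and PR+/- replicate 4 lie to the right in the left panel. Ptgs2 separates the genotypes over all arrays, which leaving arrays out could not undo.

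Genes named as regulators of Ptgs2 transcription or mRNA stability showed no called change. Of 18 measured, none rose or fell in limma, and the median log2 change was 0.03, beside 0.03 for all genes. Cebpb, a C/EBP factor, had a log2 change of 0.09 ± 0.084, and Creb1, which binds cyclic AMP response elements, -0.01 ± 0.063 (SE). Zfp36, which destabilises AU-rich mRNAs, had -0.38 ± 0.13 (limma adjusted p = 0.118), and Dusp1, a phosphatase of the p38 and JNK kinases, -0.31 ± 0.18. Both were called lower without PRKO replicate 1, and no regulator was called on leaving out any other single array. The genotypes did not overlap in 1 of the 18, the cytokine gene Tnf (3.75 to 4.08 in PRKO and 3.45 to 3.68 in PR+/-), as in 7.20% of all genes.

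Pla2g4a, the cytosolic phospholipase A2 that frees arachidonic acid, lies next to Ptgs2 on mouse chromosome 1: in the RefSeq annotation of GRCm38, 2 entries stand between them, a pseudogene and the noncoding RNA Ptgs2os. Its signal was 8.94 to 9.38 in PRKO and 9.11 to 9.28 in PR+/-, so that the PRKO range enclosed that of PR+/-. The log2 change was 0.04 ± 0.091 (SE; 95% interval -0.16 to 0.23; limma adjusted p = 0.837), or 0.21 with the IQR as a covariate, and its difference from the change of its neighbour Ptgs2 passed the test above.

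Some other genes that govern free arachidonic acid had lower signal in PRKO. Among the 24 with a probe set, 4 fell and none rose, with a median log2 change of -0.06. Of all genes, 3.87% fell and 1.09% rose. Mgll, which releases arachidonic acid by cleaving the endocannabinoid 2-arachidonoylglycerol, fell by 0.45 ± 0.10 (SE), reading 6.14 to 6.70 in PRKO and 6.69 to 6.95 in PR+/-. Anxa1, a protein that restrains phospholipase A2, fell by 0.41 ± 0.097, and its PRKO values of 10.32 to 10.85 overlapped slightly with the PR+/- values of 10.81 to 11.12. Acsl4, which links free arachidonic acid to coenzyme A and so returns it to membranes, fell by 0.36 ± 0.083. All its PRKO pools (9.00 to 9.21) were below all PR+/- pools (9.29 to 9.68), as for 5.06% of all genes in this direction. Pla2g6, a calcium-independent phospholipase A2, fell by 0.36 ± 0.094. The genes that fell thus include enzymes that release the acid, an inhibitor of its release and an enzyme that recaptures it. Their limma adjusted p values were 0.0182, 0.0249, 0.0217 and 0.0446 in the order given.

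These 4 calls were near the threshold. None of the 4 was called without PR+/- replicate 2, without the 2 arrays of high ovarian signal, with the IQR as a covariate or with every row of the table tested. Of the 4, 1 was called without PR+/- replicate 5, after quantile normalization or without variance moderation, and 2 without PR+/- replicate 1 or 3 or PRKO replicate 5. Over all alternatives the limma adjusted p spanned 0.00260 to 0.315 for Mgll, 0.00436 to 0.381 for Anxa1, 0.00453 to 0.225 for Acsl4 and 0.0165 to 0.295 for Pla2g6, while each log2 change stayed negative.

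**Figure D3:**
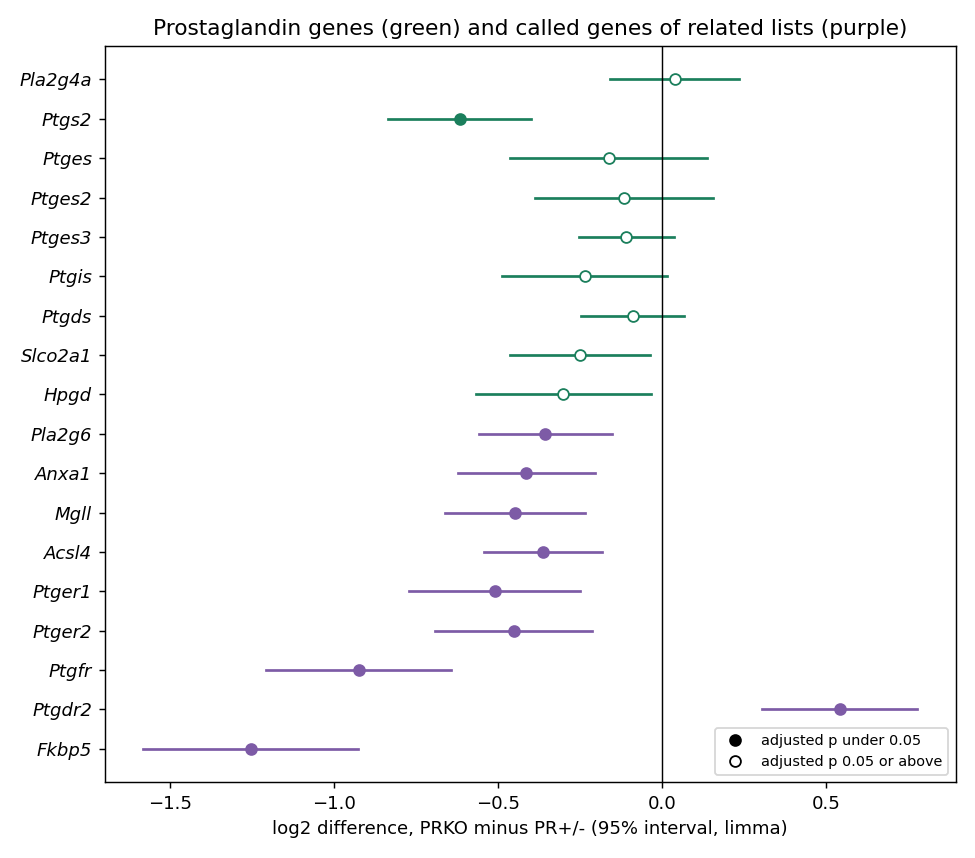
Log2 difference, PRKO minus PR+/-, with its 95% interval from limma, for the 9 measured prostaglandin genes (green) and for the called genes of the arachidonic acid, prostanoid receptor and chaperone lists (purple); filled points passed an adjusted p of 0.05. Among the green intervals, those of Ptgs2, Slco2a1 and Hpgd lie below 0, and the filled point is that of Ptgs2 at -0.62.

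The terminal synthases did not pass. Ptges, the microsomal prostaglandin E synthase that is often induced along with Ptgs2, read 6.46, 6.51, 6.15, 5.69 and 5.89 in PRKO replicates 1 to 5, against 6.44, 6.19, 6.37, 6.34 and 6.18 in PR+/- replicates 1 to 5. PRKO replicates 1 and 2 were above every PR+/- pool and the other PRKO pools below every one. The SD was 0.36 in PRKO and 0.12 in PR+/-, and the log2 change of -0.16 had a 95% interval of -0.46 to 0.14. A larger SD in PRKO was found for 8 of the 9 members and for 74.7% of all genes. The Ptges change was -0.05 without PRKO replicate 4, -0.10 without PRKO replicate 5, -0.26 without PRKO replicate 2, and -0.00026 with the IQR as a covariate. Ptges2, a second membrane-associated prostaglandin E synthase, ranged from 5.78 to 6.51 in PRKO and from 6.07 to 6.53 in PR+/- (log2 change -0.12, 95% interval -0.39 to 0.16). Its change was -0.05 without PR+/- replicate 1, -0.07 without PR+/- replicate 2, -0.20 without PRKO replicate 1, -0.02 without PRKO replicate 5 and 0.11 with the IQR as a covariate. Ptgis, the prostacyclin synthase of vessels and muscle, ranged from 5.96 to 6.69 in PRKO and from 6.52 to 6.76 in PR+/-, with a log2 change of -0.24 ± 0.12 (SE; 95% interval -0.49 to 0.02; limma adjusted p = 0.267). Its lowest value, 5.96, was that of PRKO replicate 4, without which the change was -0.12, and with the IQR as a covariate it was -0.40. Ptgds, the lipocalin-type prostaglandin D synthase, ranged from 5.12 to 5.36 in PRKO and from 5.29 to 5.46 in PR+/- (log2 change -0.09, 95% interval -0.25 to 0.07), and its change was -0.05 without PRKO replicate 2 and -0.15 with the IQR as a covariate.

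Ptges3, also called p23, is a cochaperone of Hsp90 that helps steroid receptors hold their ligand-binding form, and it has been described as a cytosolic prostaglandin E synthase. Its 3 probe sets disagreed. The brightest, 10511865, stood for the gene and read 10.41 to 10.57 in PRKO and 10.54 to 10.68 in PR+/-, a log2 change of -0.11 ± 0.068 (SE, limma adjusted p = 0.374). The dimmest, 10367100, read 8.40, 8.29, 8.44, 8.55 and 8.32 in PRKO replicates 1 to 5, against 8.03, 8.15, 8.07, 8.21 and 8.23 in PR+/- replicates 1 to 5. All PRKO pools were thus above all PR+/- pools on it, as for 2.15% of all genes in this direction, with a log2 change of 0.26. It did not pass when it stood for the gene (limma adjusted p = 0.0647), nor among all rows of the table (0.106). The third, 10539649, had a log2 change of -0.06.

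The probe sets are numbered along the genome. Ptges3 lies on chromosome 10, and of the 20 named probe sets nearest in number to 10367100, 19 belong to genes of that chromosome. Of the 20 nearest to 10511865, 19 belong to chromosome 4, and of the 20 nearest to 10539649, 19 to chromosome 6. What the brighter pair reads beyond Ptges3 was not tested, and the direction of Ptges3 is uncertain here. Among 10 measured chaperones that act with p23 on steroid receptors, 1 was called, where 4.96% of all genes were. This was Fkbp5, a hormone-responsive immunophilin, which fell by 1.25 ± 0.15 (SE). Hsp90aa1 had a log2 change of 0.00 and Stip1, which links Hsp70 and Hsp90, one of 0.17.

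**Figure D4:**
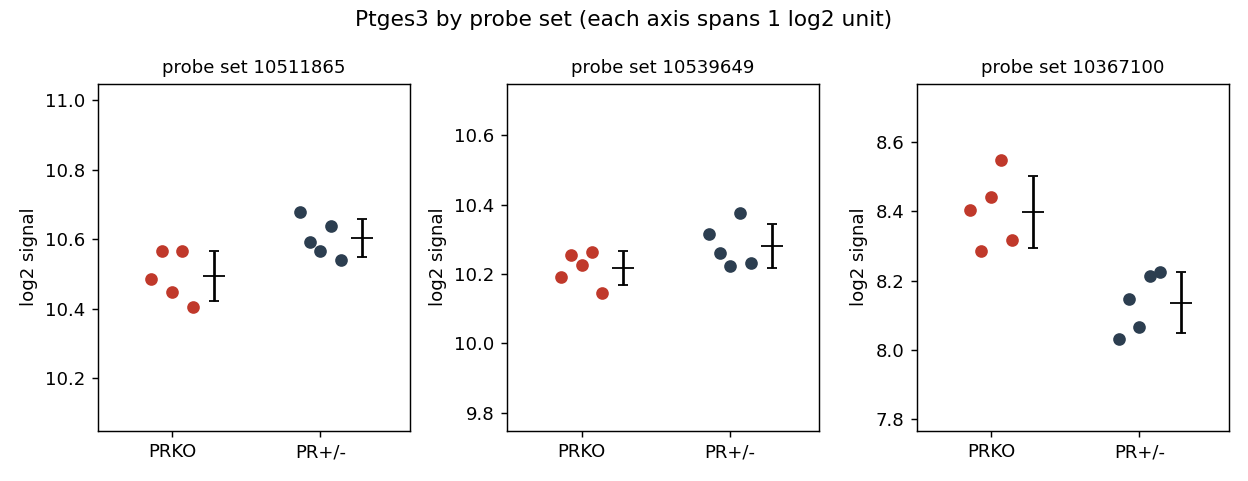
Log2 signal of the 3 Ptges3 probe sets in the 5 PRKO pools (red, left) and the 5 PR+/- pools (dark, right), with mean and SD; each vertical axis spans the same number of log2 units. The genotypes overlap on 10511865 and 10539649, whereas on 10367100 every PRKO pool, from 8.29 up, lies above every PR+/- pool, up to 8.23.

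The genes for uptake and breakdown had lower means in PRKO without passing over all genes. Slco2a1, the prostaglandin transporter that brings prostaglandins into cells, read 9.79, 9.71, 9.47, 9.36 and 9.24 in PRKO replicates 1 to 5, against 9.72, 9.80, 9.74, 9.79 and 9.76 in PR+/- replicates 1 to 5. The PR+/- pools were nearly level, with an SD of 0.034, while those of PRKO had an SD of 0.23, the more common order among all genes, and 4 of 5 lay below the lowest PR+/- pool. The log2 change was -0.25 ± 0.099 (SE; 95% interval -0.46 to -0.04; limma adjusted p = 0.168). It was -0.15 after quantile normalization and -0.10 with the IQR as a covariate, and PRKO replicate 5, the lowest in Slco2a1, also had the lowest IQR. Hpgd, the dehydrogenase that begins the inactivation of prostaglandins, read 7.91, 8.31, 8.60, 8.27 and 8.40 in PRKO replicates 1 to 5, against 8.64, 8.38, 8.43, 8.68 and 8.87 in PR+/- replicates 1 to 5. Its log2 change was -0.30 ± 0.12 (SE; 95% interval -0.57 to -0.03; limma adjusted p = 0.183). The change was -0.20 without PRKO replicate 1, the lowest pool, -0.38 without PRKO replicate 3, the highest, and -0.42 with the IQR as a covariate. It was not called under any alternative.

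The promoter windows of these genes are printed for comparison with that of Ptgs2, in the same form, Hpgd at chr8:56294302-56294601 and Slco2a1 at chr9:103008237-103008536, each on the + strand of GRCm38.p6.
Hpgd: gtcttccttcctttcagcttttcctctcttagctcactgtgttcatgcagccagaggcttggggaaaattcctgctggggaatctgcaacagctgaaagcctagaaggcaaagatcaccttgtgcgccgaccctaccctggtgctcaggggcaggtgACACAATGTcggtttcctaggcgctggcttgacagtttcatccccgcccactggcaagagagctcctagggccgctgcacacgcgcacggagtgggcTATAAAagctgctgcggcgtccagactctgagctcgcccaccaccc
Slco2a1: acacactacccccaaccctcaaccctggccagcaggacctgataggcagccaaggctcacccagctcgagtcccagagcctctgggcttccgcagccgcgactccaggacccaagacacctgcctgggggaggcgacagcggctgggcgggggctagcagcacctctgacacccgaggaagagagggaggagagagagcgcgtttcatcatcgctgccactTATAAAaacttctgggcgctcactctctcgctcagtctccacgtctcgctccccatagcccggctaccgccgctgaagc
The capitals of Hpgd are ACACAATGT, a full match to ACANNNTGT, beginning 93 bases before the start, and TATAAA at base 5 after it. Those of Slco2a1 are TATAAA beginning 29 bases before the start. Among the 9 genes with a window, that of Hpgd was the one holding ACANNNTGT, which is present in 6.85% of all windows, and the gene did not pass the test.

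Other enzymes and carriers of prostaglandins showed no called change: of 15 measured, none rose or fell in limma, and the median log2 change was -0.02. The nearest to the threshold was Abcc4, an exporter of prostaglandins, which had the opposite sign to Slco2a1. It read 7.24 to 7.49 in PRKO and 6.89 to 7.26 in PR+/-, a log2 change of 0.31 ± 0.090 (SE, limma adjusted p = 0.0671), and it was called higher after each of the rescalings tried and with the dimmest genes left out. Cbr1, a carbonyl reductase that can convert prostaglandin E2 to F2 alpha, had a log2 change of -0.31 ± 0.11 and was called without PRKO replicate 1. Akr1b8, an aldo-keto reductase, was called lower with the IQR as a covariate alone. Ptgr1, which reduces the products of Hpgd, had a log2 change of 0.23 ± 0.079 (SE, limma adjusted p = 0.11). All its PRKO pools (7.12 to 7.47) were above all PR+/- pools (6.91 to 7.09), as for 2.15% of all genes in this direction. Hpgds, the hematopoietic prostaglandin D synthase, had a log2 change of -0.04 ± 0.087. The routes that lead arachidonic acid to leukotrienes and epoxides, 16 genes, likewise held no called gene in limma, at a median log2 change of 0.02, though Lta4h, a leukotriene A4 hydrolase, was called lower without PRKO replicate 4 and with the dimmest 50% of genes left out.

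Among the 9 prostanoid receptor genes, 3 fell and 1 rose, where 3.87% of all genes fell and 1.09% rose. The largest of these changes was that of Ptgfr, the receptor for prostaglandin F2 alpha, at -0.92 ± 0.13 (SE), and the receptor that rose was Ptgdr2, a receptor for prostaglandin D2 found on some leukocytes, at 0.54 ± 0.11 (limma adjusted p = 0.0105). The other two that fell, Ptger1 and Ptger2, are receptors for prostaglandin E2, and neither was called without PR+/- replicate 2, 3 or 5, with the IQR as a covariate, with every row tested or without variance moderation. Ptger1 was also not called without PR+/- replicate 1 or PRKO replicate 1, 3 or 5. Ptgdr2 was not called with the IQR as a covariate (limma adjusted p = 0.0963) or without variance moderation (0.0573), while Ptgfr was called under each alternative run.

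The genes whose pool-to-pool pattern was most like that of Ptgs2 were sought over the 10 arrays, as the Pearson correlation of deviations from the genotype mean among genes brighter than the median. The 6 nearest were Wee1 (0.96), a kinase that delays entry into mitosis, Plxna2 (0.91), a semaphorin receptor, Plau (0.88), the urokinase-type plasminogen activator, Dnaja2 (0.87), a cochaperone of Hsp70, Me1 (0.87), the cytosolic malic enzyme, and Mettl14 (0.87), a subunit of the RNA adenosine methyltransferase. In all 6, as in Ptgs2, PR+/- replicate 4 was the highest PR+/- array. Of the 6, Wee1 and Plxna2 were lower in PRKO (log2 changes -0.41 ± 0.090 and -0.45 ± 0.077, SE), and the other 4 were not called. With the IQR as a covariate neither was called (limma adjusted p = 0.252 for Wee1 and 0.0762 for Plxna2), and Wee1 was also not called without variance moderation (0.0501) or without the 2 arrays of high ovarian signal (0.0616). These points share arrays and were picked as the highest of many, so the values describe these arrays alone.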

How the data were processed

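Total RNA of pooled whole oviducts was labelled with biotin for Affymetrix whole-transcript arrays, per the labels' protocols. The authors deposited 1 value per probe set and array, taken here as log2 signal because values lie between 1.09 and 13.58 with array medians of 5.20 to 5.28; no label states the scale. Partek is the software listed, per the submitters' processing notes. For background correction, normalization and probe summary, the steps were not given in the sources used here. No further normalization was applied, and no dim signal was removed. Replicates are separate pools, and p-values rest on the spread among pools.

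Of 35557 rows, 21789 had 1 gene symbol, 1621 several and 12147 none in the platform annotation. The probe set with the highest mean stood for a gene, which left 19938 genes. PRKO was compared with PR+/- by limma 3.58.1 (lmFit and eBayes, R 4.3.3), with Benjamini-Hochberg adjustment over all genes and calls at an adjusted p under 0.05. On simulated data drawn from these genes' means and spreads, 26% of genes changed 1.25-fold, 84% at 1.5-fold and 100% at 2-fold were recovered, with 50 genes at each size, and 16 of the 171 calls were false. That share of false calls was above 0.05. The simulation changed fewer genes than were called in the data and took each gene's observed SD as its true one. Recovery and false calls in the data may therefore differ. Ptgs2 was set against the 8 other measured members by exact permutation, since Ptgs1 was not analysed here. Same-numbered replicates had deviations correlated at -0.01 to 0.16, which did not meet the check for pairing. Promoters are those of RefSeq.

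The members and gene lists were chosen with earlier results of these data known. Named genes were all members, Pgr, the called genes of each list, at most 4, and the 6 genes most like Ptgs2. Others, such as Abcc4, Cbr1, Ptgr1, Hpgds, Lta4h, Zfp36, Dusp1, Cebpb, Creb1, Tnf, Akr1b8, the fibroblast, epithelial and mast cell markers named, Stip1 and Hsp90aa1, were picked after their values were seen. The alternatives numbered 24: array scaling, dim-signal filters, probe set choice, variance moderation, array weights, the IQR, the replicate number as a block and arrays left out.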

Additional observations from a re-analysis of the deposited data

Results flagged for a closer look

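Dixon's test for a sample far from the others of its genotype was applied to 25 genes in each genotype, 50 groups in all, of which chance would flag about 1 in 20. It picked out 2. Ptger2, a prostaglandin E receptor gene, read 4.16 in PRKO replicate 4, against 4.56 to 4.69 in the other PRKO pools, a gap of 0.754 of the range. Plau, one of the genes most like Ptgs2 in pattern, read 7.11 in PR+/- replicate 4, against 6.47 to 6.55 in the other PR+/- pools, a gap of 0.880 of the range. PR+/- replicate 4 is also the array with the highest ovarian follicle signal of its genotype; its part in the value was not tested. None of the 9 measured prostaglandin genes was picked out in either genotype.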

How the results depend on the processing

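The lower Ptgs2 signal kept its direction under all 24 alternatives and its call under 23, with log2 changes of -0.68 to -0.53. With the IQR as a covariate it was -0.56 and not called, so 0 members were called there, and 322 genes overall. With the replicate number as a block, Ptgs2 was at -0.62 (limma adjusted p = 0.00217) and 1042 genes were called; among the named genes the block ended the call of Anxa1 (limma adjusted p = 0.0532). Leaving out single arrays gave 581 to 1165 called genes, with PR+/- replicates 1 and 2 giving the lowest counts (581 and 598). The number of called genes in the pathway lists, 9, became 3 with every row tested, without moderation or with the IQR (there Ptgfr, Fkbp5 and Akr1b8, the last not among the 9), 5 without the 2 arrays of high ovarian signal, and 3 to 10 with single arrays left out. Without those 2 arrays 562 genes were called, in a fit with fewer samples. The comparisons of Ptgs2 with other members that passed, 4 of 8, numbered 3 to 7 with single arrays left out and 0 without those 2 arrays. In that last design, of 4 against 4 arrays, the same 4 stood at the lowest adjusted exact p that 4 of 8 can reach, which is above 0.05. Some small changes turned sign: Ptges3 to 0.029 with the mean of its probe sets and to 0.26 with its dimmest probe set, an alternative chosen after seeing the data, Ptges2 to 0.11 with the IQR, Pla2g4a to -0.0017 and -0.0061 without PRKO replicates 2 and 4 (with single arrays left out, 0.10 at the highest, without PRKO replicate 5), and Mettl14 to -0.0076 without PR+/- replicate 5 (with single arrays left out, 0.062 at the highest, without PR+/- replicate 4). The cause was not tested. Ptgds gave no value with the dimmest 50% of genes left out. Scaling moved the median change of all genes to between 0.01 and 0.06. Changes of dim probe sets may be understated, and the number of arrays limits precision to a 95% interval of about ± 0.20 for the median gene.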
